A study of Drosophila melanogaster with 3 samples.

Results

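The binding of the tagged chromatin protein Lhr-eGFP was examined at promoters of genes that have no divergent partner, meaning no neighbour that starts close upstream and is read in the opposite direction. A promoter peak was a peak of the final deposited list whose summit lay within 500 bp of the start site of a protein-coding gene. It was kept when no gene so reached had the start of an opposite-strand gene within 1000 bp upstream, and when it lay outside the pericentric part of its chromosome arm. The rule kept 1549 of the 5190 peaks. Another 1549 promoter peaks reached a gene with such a partner and are called divergent promoter peaks here, 104 promoter peaks were pericentric, and 1988 peaks lay away from protein-coding starts. Within this list the rule used only positions and gene models, so signal, recurrence and sequence did not separate members from divergent promoter peaks. The list itself holds the 5190 strongest peaks of a longer combined list, so signal did decide which peaks could be members.

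Lhr (Lethal hybrid rescue) is a chromatin protein that forms a complex with Hmr, the product of Hybrid male rescue, and binds heterochromatin protein 1a (HP1a), and loss of it restores viability to hybrid males of Drosophila species. Besides heterochromatin, this complex is known at many promoters and at sites of insulator proteins. In the compact fly genome many genes lie head to head and share the DNA between them, whereas a gene without a divergent partner follows another gene in the same direction, lies inside a larger gene or stands apart. Housekeeping promoters of flies commonly carry the words of M1BP, a zinc finger protein, and the DNA replication-related element (DRE), which DREF and BEAF-32 read, in place of a TATA box.

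The material was whole embryos aged 0 to 14 hours, of both sexes pooled, from a transgenic fly line that makes Lhr fused at its C-terminus to GFP. The GFP part was precipitated with an antibody to it after sonication to 200 to 800 bp, and 3 biological replicates of this 1 group were sequenced. A whole embryo mixes cell types and stages, so a peak present in few cells cannot be told apart from a weak peak in many. No second condition existed, and members were therefore set beside divergent promoter peaks, unbound promoters and peaks elsewhere within the same libraries. Read depth is not known, as peak lists carry no counts of reads. Each library entered through its 5190 peaks of highest signal, and a rank of 1 is the strongest peak of a list.

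To show the DNA that the results turn on, the sequence under the summit is given for strong members with an M1BP word, with a DRE word and with none of 12 searched words. They were taken in order of signal, passing over members on 1 arm of chromosome 2 and, in the sets with a word, members whose word lay in an annotated exon, such as Wdr62. Sequences were read from the RefSeq Release 6 genome (dm6), 5′ to 3′ on the strand of the gene, within 100 bp of the summit and clear of annotated exons. Capitals mark exact matches to the M1BP word GGTCACACT or its reverse complement and to the DRE word TATCGATA.
The members with an M1BP word are these.
ATPsynC, chr3R:31219633-31219833, minus strand: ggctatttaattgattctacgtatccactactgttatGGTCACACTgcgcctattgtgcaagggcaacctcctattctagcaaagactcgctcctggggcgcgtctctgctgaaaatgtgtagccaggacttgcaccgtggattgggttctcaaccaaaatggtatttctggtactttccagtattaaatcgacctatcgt
Dpm3, chr3R:13403200-13403400, minus strand: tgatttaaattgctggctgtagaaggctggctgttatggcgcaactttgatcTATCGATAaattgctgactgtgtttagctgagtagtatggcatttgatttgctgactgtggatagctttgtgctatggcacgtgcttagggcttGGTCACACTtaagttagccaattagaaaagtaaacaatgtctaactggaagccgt
cib, chrX:4105863-4106063, plus strand: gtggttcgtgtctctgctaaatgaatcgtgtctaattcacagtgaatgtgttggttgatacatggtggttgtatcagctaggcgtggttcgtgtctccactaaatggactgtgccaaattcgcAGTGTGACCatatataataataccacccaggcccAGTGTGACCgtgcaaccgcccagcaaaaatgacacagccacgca
The following members have a DRE word.
Abl, chr3L:16647902-16648102, minus strand: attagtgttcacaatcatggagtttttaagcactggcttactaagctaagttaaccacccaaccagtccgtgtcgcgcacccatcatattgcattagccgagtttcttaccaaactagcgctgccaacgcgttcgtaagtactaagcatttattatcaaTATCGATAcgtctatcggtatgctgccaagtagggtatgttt
Map205, chr3R:32068464-32068664, minus strand: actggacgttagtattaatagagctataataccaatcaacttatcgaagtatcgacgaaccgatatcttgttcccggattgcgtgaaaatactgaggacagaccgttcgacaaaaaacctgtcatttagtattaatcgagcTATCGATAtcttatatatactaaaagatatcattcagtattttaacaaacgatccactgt
RpS10b, chrX:19597887-19598030, plus strand: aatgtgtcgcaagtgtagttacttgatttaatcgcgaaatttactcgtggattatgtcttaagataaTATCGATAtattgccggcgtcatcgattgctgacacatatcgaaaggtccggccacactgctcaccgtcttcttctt
None of the 12 words occurs under the summits of these members.
CG14100, chr3L:19590525-19590719, minus strand: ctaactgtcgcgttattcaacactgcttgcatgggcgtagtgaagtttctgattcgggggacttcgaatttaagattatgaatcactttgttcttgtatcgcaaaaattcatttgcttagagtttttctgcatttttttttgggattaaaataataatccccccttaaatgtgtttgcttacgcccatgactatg
Galphai, chr3L:6980045-6980207, minus strand: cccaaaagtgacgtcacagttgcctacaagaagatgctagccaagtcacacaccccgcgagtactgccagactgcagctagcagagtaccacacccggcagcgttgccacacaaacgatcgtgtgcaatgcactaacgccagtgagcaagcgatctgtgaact
RpL30, chr2L:19009307-19009461, minus strand: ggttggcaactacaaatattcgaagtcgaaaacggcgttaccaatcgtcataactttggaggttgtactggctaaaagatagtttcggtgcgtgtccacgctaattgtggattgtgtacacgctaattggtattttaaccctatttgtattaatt
ATPsynC, a subunit of the membrane ring of the mitochondrial ATP synthase, had its M1BP word upstream of the summit. The peak of Dpm3, a subunit of the enzyme that makes dolichol-phosphate mannose, held 1 M1BP and 1 DRE word. The peak of cib, an actin-binding protein with thymosin beta repeats, held 2 M1BP words, both on the strand opposite to the gene. Abl encodes a tyrosine kinase, Map205 a microtubule-associated protein and RpS10b a protein of the small ribosomal subunit. In the order ATPsynC, Dpm3 and cib, the ranks in the final list were 37, 67 and 74. Abl, Map205 and RpS10b ranked 91, 110 and 137, while the word-free CG14100, Galphai and RpL30 ranked 12, 16 and 25, above all 6 members shown with a word. This order is that of the members shown. Over all members the median rank, in percent with 100 the strongest, was 60.3 with the M1BP word and 55.5 without it. For the DRE word the medians were 49.8 and 57.2.

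The members were spread over the arms, of which 2L held 283, 2R 295, 3L 291, 3R 362, X 286, chromosome 4 held 32 and Y 0. Under the same rule, replicates 1, 2 and 3 had 1457, 1699 and 1529 members, or 30.1% ± 2.39 of their peaks (SD, n = 3). The divergent class held 1400, 1689 and 1551 peaks in the same libraries. Both classes were thus largest in replicate 2 and smallest in replicate 1. A single gene was reached by 1421 members, 2 genes by 121 and 3 or more by 7. The 1549 members reached 1512 genes, of which 1361 had 1 member, 136 had 2 and 15 had 3 or more, so some members share a target. The start nearest to the summit was the 5′ end of the gene for 1229 members (79.3%) and a start further downstream for 320 (20.7%).

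Most summits lay just upstream of the start site. The median position was -91 bp for members, with -99, -86 and -88 bp in replicates 1, 2 and 3, against -76 bp for divergent promoter peaks, with -80, -73 and -76 bp. Of the members, 91.1% lay upstream of the start, against 87.4% of divergent promoter peaks. The members reached further upstream, with a lower quartile at -202 bp against -129 bp, and 25.1% of members lay over 200 bp upstream against 8.20% of divergent peaks. That last share was higher in members in every library, by 15.7 ± 0.393 percentage points (SD, n = 3). In the divergent class a partner starts at most 1000 bp upstream of the outermost start of a gene. Where the peak lies at that start and the partner is protein-coding, the distance is taken to the nearer start. This geometry can shorten the upstream tail of divergent peaks, and its part in the difference was not tested.

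An exact two-sided sign-flip permutation test over 3 libraries cannot give a p below 0.25. Of the 27 differences of this kind that were computed, 21 reached that smallest value, with a Benjamini-Hochberg adjusted p of 0.321 for each in the exact test. Differences are therefore given as mean and SD over the libraries, and none passed a test.

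**Figure D1:**
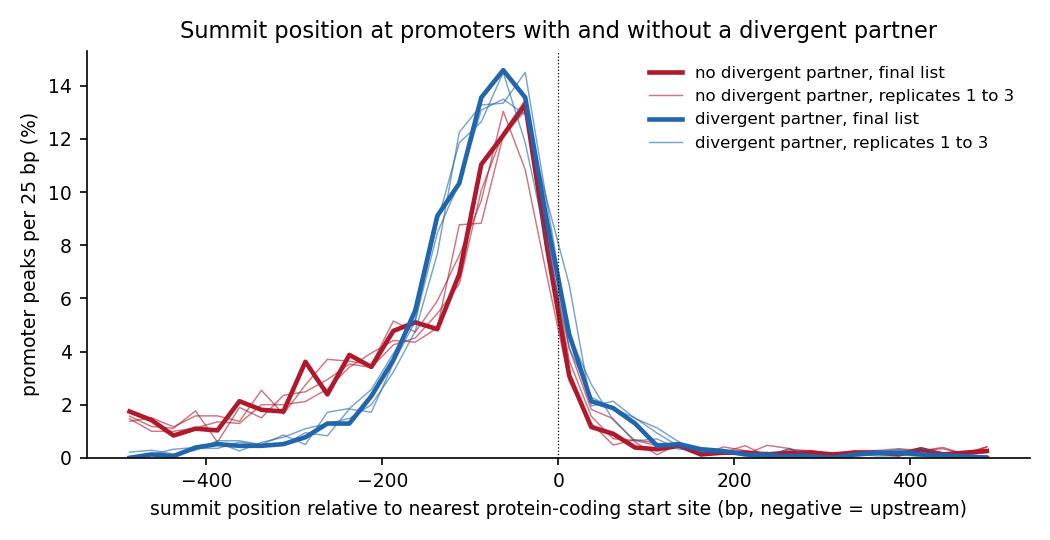
Position of the summit relative to the nearest protein-coding start site, in bins of 25 bp, as the percentage of each class of promoter peaks. Thick lines are the final list and thin lines replicates 1 to 3. Members (red) peaked between the start and 100 bp upstream, like divergent promoter peaks (blue), and had the longer upstream tail, with 25.1% against 8.20% over 200 bp upstream.

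The members covered the whole range of strength. The deposited signal of members ran between 173 and 3261, with a median of 333 and quartiles at 236 and 507, against a median of 326 and quartiles at 244 and 466 for divergent promoter peaks. The median rank, in percent with 100 the strongest, was 56.0 for members and 54.5 for divergent peaks. The difference over the libraries was 0.552 ± 1.14 percentage points (SD, n = 3) and was positive in 2 of the 3. In the combined relaxed list, which also holds background, the difference was -8.61 in place of 1.48 in the final list. Members were more common than divergent peaks at both ends of the list. At the strong end, 12.3% of members lay in the strongest 10% of the final list against 10.3% of divergent peaks. This difference was positive in all 3 libraries, at 1.71 ± 0.354 percentage points (SD, n = 3). The weakest 10% held 8.72% of members against 6.91% of divergent peaks, with a difference of 1.02 ± 1.40 percentage points that was positive in 2 of the 3 libraries.

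The strongest member belonged to CG5273, on X, with its summit at -459 bp from the start, a signal of 3261 and ranks of 6, 5 and 8 in replicates 1, 2 and 3. A further member lay in the same peak region of CG5273, at -255 bp, with a signal of 1400 and ranks of 38, 199 and 154. CG14100 on 3L ranked 16, 26 and 11 in the 3 libraries with its summit at -95 bp, and CG6966 on 3R ranked 22, 10 and 16 at -220 bp. Galphai, an inhibitory G protein alpha subunit that orients the spindle of dividing neuroblasts, ranked 17, 15 and 17 at -63 bp. The gene smash, which encodes an adherens junction protein, ranked 21, 8 and 37 at -68 bp. These genes were thus near the top of every library, within the strongest 40 peaks for all but the further member of CG5273.

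The Polycomb group gene ph-p encodes a core subunit of Polycomb repressive complex 1. Its strongest peak ranked 20, 72 and 13 in replicates 1, 2 and 3, with its summit at -481 bp from the nearest start. That start is an alternative one, and the summit lay inside the gene, downstream of another start. A weaker member lay 404 bp downstream of this other start, with ranks of 157, 455 and 192. RpL30 and RpL23A, proteins of the large ribosomal subunit, ranked 27, 13 and 32 at -55 bp, and 48, 22 and 29 at -103 bp. Lk6, a kinase that phosphorylates the cap-binding factor eIF4E, ranked 60, 12 and 31 at -118 bp. The other members of the strongest 12 lay at CG1888, CG32301 and ssp3. CG1888 ranked 19, 76 and 20 at -246 bp, CG32301 ranked 44, 17 and 30 at -270 bp, and ssp3 ranked 41, 14 and 36 at -351 bp. All of the 12 strongest members were found in every library. Of these, 6 had their summit over 200 bp upstream of the nearest start, at CG5273, CG6966, ph-p, CG1888, CG32301 and ssp3.

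The final list is the 5190 strongest peaks of the combined list of all libraries, so a member need not occur in each. A member counted as found in a library when a summit among its 5190 strongest lay within 100 bp. By this measure 1056 members (68.2%) were found in all 3 libraries, 358 in 2, 124 in 1 and 11 in 0. The share found in all 3 was 67.3% for divergent promoter peaks, 58.4% for peaks away from protein-coding starts, and 64.3% for all peaks of the final list. Per library, 85.2%, 86.7% and 86.9% of members were found in replicates 1, 2 and 3, against 81.5%, 87.7% and 88.0% of divergent peaks, so the order of the classes was not the same in each library. For members found in all 3 libraries, the median distance between their outermost summits was 31 bp, and 73.7% had them within 50 bp.

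**Figure D2:**
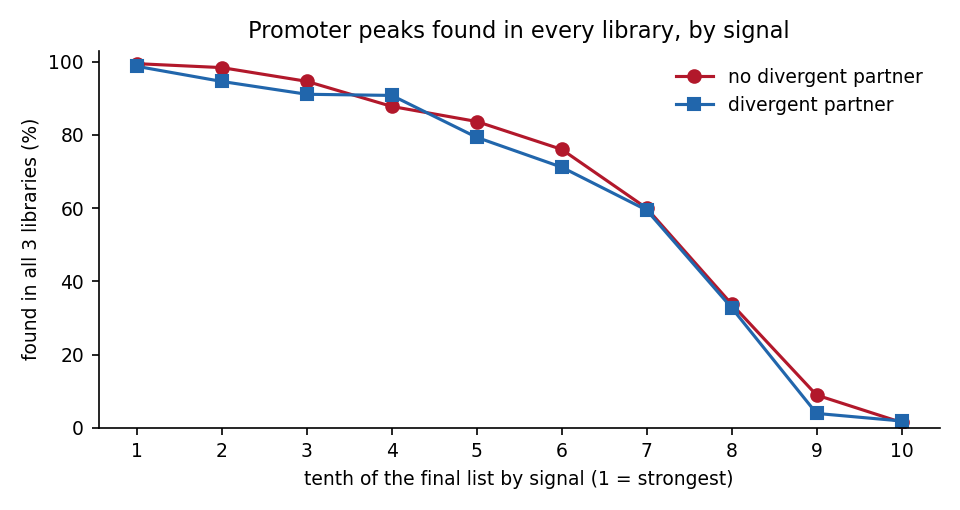
Percentage of promoter peaks found in all 3 libraries, in steps of 10% of the final list from the strongest (1) to the weakest (10), for members (red circles) and divergent promoter peaks (blue squares). Among members it was 99.5% in the strongest step and 1.48% in the weakest, against 98.7% and 1.87% among divergent peaks.

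The share found in all 3 libraries fell with the signal, as the plot by steps of 10% of the list shows. Both the final list and each library end at 5190 peaks, so a peak near the end of the final list can easily miss that of a library, and part of the fall is set by this equal length. Among the strongest 10% of the final list 99.5% of 190 members were found in all 3 libraries, and in the fifth such step 83.7% of 147. Among the weakest 10% only 1.48% of 135 were. The weak members, with signals below 213, were seldom among the 5190 strongest peaks of every library.

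Words of housekeeping promoters were more common under the members than in unbound promoters or in peaks elsewhere. A word was counted when it matched exactly on either strand within 100 bp of the summit. Windows of the same length, 201 bp, centred 91 bp upstream of the start of each gene without divergent partner, gave the background for genes with and without a peak. The M1BP word lay under 160 members (10.3%), and 10.3% ± 0.615 over the libraries (SD, n = 3), against 10.7% of divergent promoter peaks, 0.604% of peaks away from starts and 0.851% of unbound promoters without divergent partner. Across all 8705 promoters without divergent partner it was 2.14%. The DRE word lay under 165 members (10.7%), against 10.3% of divergent peaks, 1.96% of peaks away from starts, 3.10% of unbound promoters and 4.57% of all such promoters. The members exceeded unbound promoters 12.1-fold for M1BP and 3.44-fold for DRE. With both promoter sets taken in the fixed windows, the M1BP word was in 8.14% of bound and 0.851% of unbound promoters, and the DRE word in 11.5% and 3.10%.

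The order of members and divergent promoter peaks in these words depended on the setting. Over the libraries the M1BP share of members minus that of divergent peaks was 0.0940 ± 0.575 percentage points, and the DRE share -0.319 ± 0.301 (SD, n = 3 libraries each). In the final list the differences had the opposite signs, -0.387 for M1BP and 0.387 for DRE, and without replicate 3 the M1BP difference was 1.19. With the motif window widened to 200 bp on each side of the summit the differences were -3.62 for M1BP and -3.87 for DRE, whereas with promoter peaks limited to 200 bp from the start they were 2.31 and 2.51. Only 13 members held both words, 312 (20.1%) held either, and 430 (27.8%) held none of the 12 words. The word GGTCACACT stood on the gene's strand in 117 of the 160 members (73.1%), and the median of its position was -15.5 bp, nearer to the start than the summits of the same members, with a median of -49 bp.

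Other words of housekeeping core promoters were also common. Ohler motif 6, a core promoter word of such genes, lay under 3.55% of members, against 3.23% of divergent peaks, 0.670% of unbound and 1.19% of all promoters without partner. Ohler motif 7 lay under 10.7% of members, against 13.9% of divergent peaks, 3.39% of unbound and 4.27% of all these promoters. The share of members was lower in all 3 libraries, with a difference of -2.94 ± 0.883 percentage points (SD, n = 3). The word CAGGGCTG of the architectural protein ZIPIC was in 3.23% of members, 4.07% of divergent peaks, 0.739% of unbound and 1.13% of all promoters without partner. The E-box word was in 2.45% of members, 2.65% of divergent peaks, 1.46% of unbound and 1.59% of all these promoters.

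The words of the insulator proteins CTCF and Su(Hw) were more common in members than in divergent promoter peaks in every library. The word of the architectural protein ZIPIC was less common in members in all 3 libraries, with a difference of -0.681 ± 0.143 percentage points (SD, n = 3). The CTCF word lay under 51 members (3.29%) against 1.36% of divergent peaks, and the difference was 1.74 ± 0.184 percentage points, positive in all 3 libraries (SD, n = 3). It was in 0.167% of unbound and 0.551% of all promoters without partner, and in 5.13% of peaks away from starts. CTCF is a zinc finger protein of insulators and domain boundaries. Members with the word were strong and recurrent, with a median rank of 71.5% against 55.2% without it. Of them 78.4% were found in all 3 libraries, against 67.8% without it. This share was also high with Ohler motif 6 (81.8%), Ohler motif 7 (76.4%) and the ZIPIC word (74.0%), and lower with others, such as DRE (64.8%). The median position of the CTCF word was -131.5 bp, further out than the M1BP word. The strongest member with it lay at CG10600, at -88 bp, with ranks of 150, 70 and 113. The Su(Hw) word, of another insulator protein, was in 16 members (1.03%), against 0.452% of divergent peaks, 0.432% of unbound and 0.482% of all promoters without partner, and 2.06% of peaks away from starts. Of these 16 only 4 were found in all 3 libraries, although CG32301, among the 12 strongest members, is one of them.

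Words of regulated promoters were less common under members than in unbound promoters. The word GAGAGAG of GAGA factor, a protein of developmental promoters, was in 3.03% of members and 1.42% of divergent peaks, higher by 1.28 ± 0.364 percentage points over the libraries. It was in 5.82% of unbound and 5.85% of all promoters without partner. In the fixed windows, which do not follow the summit, bound promoters had 5.99%, so the order of members and unbound promoters rests on where the window is placed. The strongest member with the word was CG18549, with ranks of 32, 45 and 42. The word CAGGTAG of Zelda, the activator of the early zygotic genome, was in 6 members (0.387%), against 0.646% of divergent peaks, 1.49% of unbound and 1.33% of all these promoters, and the strongest was CG13766, with ranks of 996, 611 and 857. TATAAA was in 30.0% of members, 36.3% of divergent peaks, 35.7% of unbound and 34.8% of all promoters without partner. TCAGT, a core of the initiator, was in 31.7% of members, 30.5% of divergent peaks, 44.9% of unbound and 43.3% of all these promoters. Matches were not limited to the place or strand of a TATA box or initiator. In members the TATAAA match nearest to the summit stood on the gene's strand in 49.5%, at a median of -155.5 bp. For TCAGT the values were 56.4% and -103 bp. The windows of members had a mean GC content of 37.3%, against 36.1% for divergent peaks and 40.5% for unbound promoters. In the fixed windows bound promoters had 38.6%. The part of GC content in the shares of AT-rich words was not tested. Among the words spelled out here, none contains another.

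**Figure D3:**
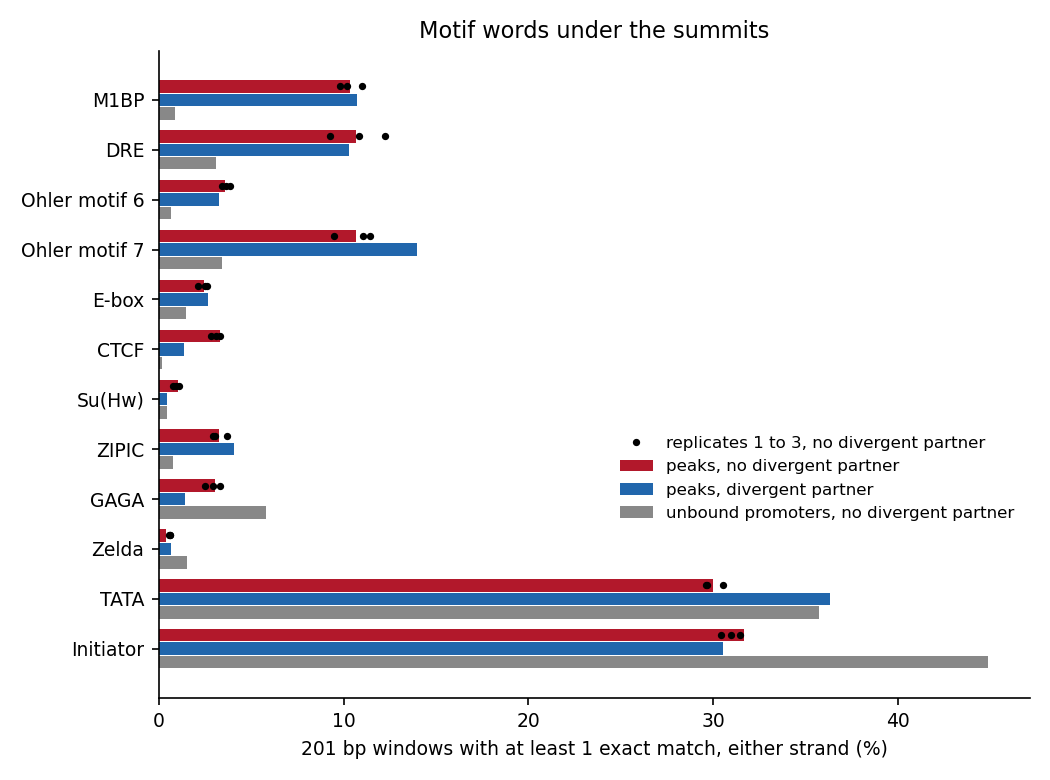
Percentage of 201 bp windows with at least 1 exact match to each of 12 words, for members (red), divergent promoter peaks (blue) and unbound promoters without divergent partner (grey), with the members of replicates 1 to 3 as points. M1BP was in 10.3% of members, 10.7% of divergent peaks and 0.851% of unbound promoters, while the CTCF word was in 3.29%, 1.36% and 0.167%.

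The words depended on where the summit lay. Of the 687 members with summits 1 to 100 bp upstream of the start, 17.3% held M1BP and 16.9% held DRE. Of the 389 members over 200 bp upstream, 1.80% and 3.08% did. The CTCF word was in 3.49% of the near and 4.37% of the far members, and the Su(Hw) word in 0.437% and 2.06%. The far members had a mean GC content of 34.0% against 39.8% for the near ones, and 65.0% of them were found in all 3 libraries against 69.9%. The 335 members at 101 to 200 bp upstream had the highest median rank, 64.6%, and 72.8% of them were found in all 3 libraries. Members with summits inside the first 100 bp downstream were weaker, with a median rank of 37.1% for 87 members.

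Read from the side of the genes, 1536 of 8705 protein-coding genes without divergent partner were bound, meaning that at least 1 start had a summit no more than 500 bp away. This is 17.6%, and 17.6% ± 1.31 over the libraries (SD, n = 3), against 48.8% for 2449 of 5016 genes with a partner. A single summit can count for both genes of a divergent pair where each is protein-coding and starts within 500 bp of it. How often this occurred was not counted, and its part in the difference was not tested. The bound share differed with the word in the promoter window. It was 36 of 48 genes with the CTCF word and 67.2% of 186 with M1BP, followed by 53.8% of 104 with Ohler motif 6, 45.9% of 98 with the ZIPIC word, 44.2% of 398 with DRE and 34.7% of 372 with Ohler motif 7. Over the libraries the share was 70.1% ± 3.18 for CTCF, 65.4% ± 6.81 for M1BP and 44.6% ± 7.82 for DRE (SD, n = 3). With the Su(Hw) word 26.2% of 42 genes were bound, with GAGA 18.1% of 509 and with Zelda 7.76% of 116. Genes with none of the 12 words were bound in 17.4% of 2383 cases, close to the 17.6% of all genes without divergent partner.

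The bound share differed with the distance to the upstream neighbour. With the opposite-strand start 1 to 250, 251 to 500 and 501 to 1000 bp away, which makes a divergent pair, 48.6%, 59.9% and 33.7% of genes were bound. Beyond the limit the share was 18.2% at 1001 to 1500 bp, 18.2% at 1501 to 2000 bp, 20.1% at 2001 to 5000 bp and 16.5% over 5000 bp. Among genes without partner the share thus lay between 16.5% and 20.1% at every distance. Genes without partner were also compared by the end of a same-strand gene upstream. Of genes with such an end within 1000 bp, 20.4% of 3681 were bound, against 15.6% of the other 5024, and the difference was 4.95 ± 2.00 percentage points, positive in all 3 libraries (SD, n = 3, exact sign-flip permutation p = 0.25). In the final list the difference was 4.82 percentage points, against 1.60 in its stronger part and 2.06 with the partner limit at 500 bp. Without each library in turn, which keeps only final-list peaks found in the other 2, it lay between 2.64 and 3.20. The mean over the 2 remaining libraries was 5.77, 3.84 and 5.25 without replicates 1, 2 and 3.

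**Figure D4:**
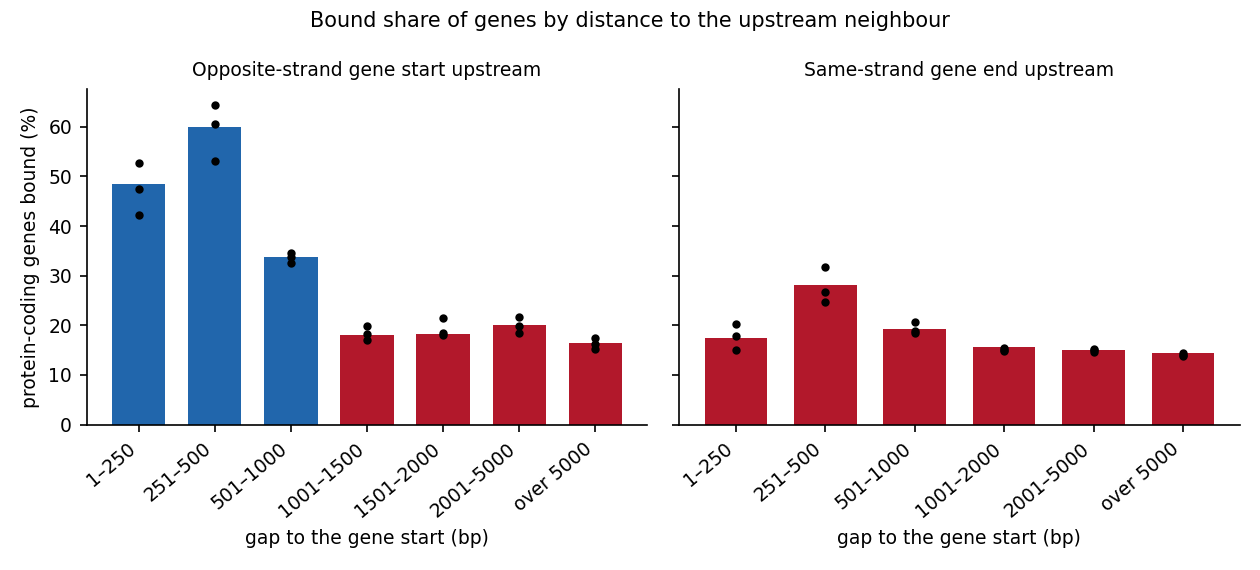
Percentage of protein-coding genes bound, by the gap between the gene start and the upstream start of an opposite-strand gene (left) or the upstream end of a same-strand gene (right, genes without divergent partner whose start lies outside other genes). Bars are the final list, red for genes without divergent partner and blue for genes with one, and points are replicates 1 to 3. At 251 to 500 bp 28.1% of genes behind a same-strand gene were bound and 59.9% of divergent genes.

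Among genes whose start lay outside other genes, the bound share was highest at 1 distance. It was 28.1% where the same-strand gene ended 251 to 500 bp upstream, and 27.8% ± 3.58 over the libraries (SD, n = 3). At 1 to 250 bp it was 17.5%, at 501 to 1000 bp 19.3%, and between 14.4% and 15.7% beyond 1000 bp. In tandem pairs 614 summits lay upstream of the start, where the median gap between the genes was 341 bp, and 13.8% of them were within 100 bp of the upstream gene's end. Summits over 500 bp from the start could not be among them, so nearness to the start is in part set by the rule. Genes that start inside a same-strand gene were bound in 7.91% of 556 cases, against 19.5% of the 1536 that start only inside an opposite-strand gene.

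Bound genes were longer, and the bound share rose with the number of starts, although the median number of starts was 1 in bound and unbound genes. The median length of bound genes was 4226.5 bp against 1863 bp for unbound genes without partner. The bound share was 3.97% for genes under 1 kb, 12.6% at 1 to 2 kb, 21.4% at 2 to 5 kb, 31.3% at 5 to 20 kb and 26.9% at 20 kb and over. It was 12.4% for genes with 1 start site, 27.3% with 2 and 46.4% with 3 or more, and every further start adds a window in which a summit can lie. Chromosome 4, the small and largely heterochromatic chromosome, stood apart from the other arms, with 28 of 58 genes bound (48.3%, and 47.1% ± 2.63 over the libraries, SD, n = 3), against 16.8% to 19.7% on 2L, 2R, 3L, 3R and X. None of the 22 genes without partner on Y was bound. The chromosome 4 gene pho, a DNA-binding Polycomb group protein, ranked 303, 304 and 276 in the libraries with its summit at -375 bp.

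Gene lists chosen with earlier results known showed which kinds of genes were bound, beside 17.6% of all genes without divergent partner. The lists of protein families were taken by gene name, do not hold every gene of a family and can hold genes outside it. Of the listed cytoplasmic ribosomal protein genes without partner, 23 of 27 were bound (85.2% ± 3.70 over the libraries, SD, n = 3), and 22 of these 23 were bound in every library, the exception being RpL6. RpLP2, a protein of the ribosomal stalk, ranked 112, 122 and 179 at -247 bp. The 4 ribosomal genes not bound, named after their values were seen, were RpL10Aa, RpS10a, RpS24 and RpS5b. In contrast RpS10b, the partner copy of RpS10a, was bound in all 3 libraries. Genes named mRpL or mRpS, of mitochondrial ribosomal proteins, were bound in 2 of 16 cases, at mRpL13, with ranks of 184, 173 and 222, and at mRpL53, which was found in replicates 2 and 3 only. Outside the lists by name, RpL37-1, of the large cytoplasmic subunit, and tko, of the mitochondrial ribosome, were members too, with ranks of 388, 249 and 134 for RpL37-1 and 1388, 656 and 1750 for tko.

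Other genes that every dividing cell uses were bound often. Of replication and cell cycle genes 12 of 18 were bound, among them Dp, the partner of E2F, with ranks of 834, 809 and 625, and dup, the loader of the replicative helicase, with ranks of 1606, 1002 and 997. Mcm7, a subunit of that helicase, ranked 1900, 848 and 1223, and Cdk2 was not bound in the final list. Of kinetochore and checkpoint genes 5 of 8 were bound. The checkpoint gene mad2, whose window held both DRE and Ohler motif 6, ranked 236, 131 and 135, and the kinetochore genes Spc105R and Nuf2 ranked 315, 218 and 202, and 453, 845 and 792. These lists are small, and in the libraries between 4 and 7 of the 8 kinetochore genes were bound.

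The transcription and translation machinery was bound in part. Mediator and general transcription factor genes were bound in 8 of 14 cases, with TfIIA-S ranking 222, 151 and 136 and Taf1, which held an M1BP word, 518, 450 and 808. RNA polymerase subunits were bound in 4 of 12, with Polr2E, a subunit shared by the nuclear polymerases, ranking 649, 453 and 1041. Translation factors were bound in 13 of 26. The elongation factors eEF1gamma and eEF2 ranked 720, 721 and 274, and 1649, 724 and 766. Proteasome genes were bound in 9 of 18, with Prosalpha5, a core particle subunit, at 840, 305 and 302 and the lid subunit Rpn6 at 1033, 421 and 742. Vacuolar ATPase genes were bound in 7 of 21. Genes named Rab were bound in 3 of 14 cases (21.4%), near the 17.6% of all genes without divergent partner. These 14 include Rab3-GAP and Rab3-GEF, which are regulators of a Rab GTPase and were not bound.

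Some of these families hold copies of 1 gene, and those named here were chosen after their values were seen, with no tally over all families. Vha16-1, the proteolipid of the proton pump, was bound in 3 libraries, and its copies Vha16-2, Vha16-3 and Vha16-4 in 0. The cap-binding factor eIF4E1 was bound in 3 libraries, and eIF4E3, eIF4E4, eIF4E5 and eIF4E7 in 0. Other copies did not differ in this way. The translation initiation factors eIF4G1 and eIF4G2 were both bound in the final list, as were ph-p and ph-d, while the proteasome subunits Rpn12 and Rpt6 were bound in 0 libraries, as were Rpn12R and Rpt6R.

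**Figure D5:**
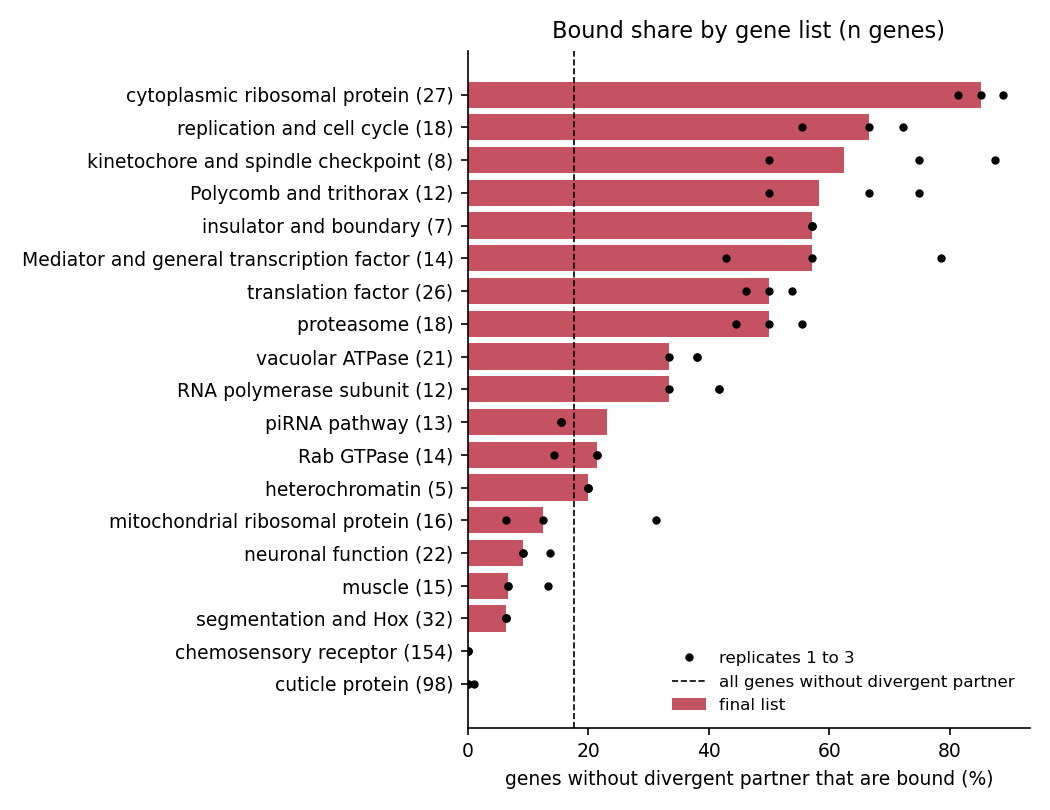
Percentage of genes without divergent partner that were bound, for 19 gene lists with the number of such genes in brackets. Bars are the final list, points replicates 1 to 3, and the dashed line the 17.6% of all genes without partner. Cytoplasmic ribosomal protein genes lay at 85.2%, and chemosensory receptor and cuticle protein genes at 0.

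Genes of chromatin were divided. Polycomb and trithorax group genes were bound in 7 of 12 cases, with trx, a histone methyltransferase gene that held an M1BP word, at ranks of 262, 193 and 282, besides ph-p and pho. Psc, another subunit gene of Polycomb repressive complex 1, was bound in 0 libraries. Of insulator genes 4 of 7 were bound. These were pita, CTCF, BEAF-32 and mod(mdg4). BEAF-32 ranked 3190, 4167 and 3073 at -96 bp, and its nearest opposite-strand start, of Spred, was 1046 bp away, just beyond the limit. Of the heterochromatin genes without partner only sov, a zinc finger protein that works with HP1a, was bound, with ranks of 500, 649 and 753, of 5 such genes. The piRNA pathway genes were bound in 3 of 13 cases (23.1%), at tej, papi and krimp, but in 15.4% in each library. The summit of tej lay at -488 bp, near the 500 bp limit, and this gene counted as bound in 1 library and krimp in 2. The genes of Lhr, Hmr and HP1a all have divergent partners, at gaps of 69, 267 and 225 bp, and are thus not members.

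Genes listed for patterning, neurons, muscle, cuticle or chemosensation were seldom bound. The list of segmentation and Hox genes also holds other patterning genes, such as sna, sog and tin. Of its 32 genes without partner 2 were bound. These were bcd, the anterior determinant laid down as maternal RNA, and tin, which specifies the heart. They ranked 443, 150 and 199, and 694, 1081 and 951. Neuronal genes were bound in 2 of 22, at elav, an RNA-binding protein of neurons, with ranks of 307, 426 and 267, and at Syx1A, a syntaxin of the synapse, with ranks of 670, 1098 and 631. Muscle genes were bound in 1 of 15, at sls, the fly titin, with ranks of 1625, 2601 and 1293. None of 98 cuticle protein genes and none of 154 chemosensory receptor genes was bound in the final list. In the libraries the cuticle share was at most 1.02%, and the chemosensory share was 0 in each. The lists were not matched for gene length or number of starts, and the part of these in the shares was not tested.

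At the edges of the rule the members did not stand out. The members furthest from a start lay 500 bp away, at Atpalpha with a signal of 517 and at CG12402 with a signal of 294. Just outside, at 501 bp, were CG6602 with 273 and Fbl6 with 272. Between 451 and 500 bp there were 56 members with a median signal of 287, and 45 peaks at 501 to 550 bp, with a median of 321, would have been members with a wider window.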

How the data were processed

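Chromatin immunoprecipitation of Lhr-eGFP was sequenced in 3 replicate libraries. Per the labels and the text listings deposited with each library, the authors made a relaxed list of peaks for each library against a control alignment, a combined relaxed list, and a final list thresholded on the irreproducible discovery rate. For the aligner, the peak caller and the threshold, names and settings were not given in the sources used here, and the control library was not analysed here. The deposited signal of a peak is the authors' enrichment value, has no common scale between lists, and was used only to rank peaks. The final list equals the strongest 5190 peaks of the combined list of 20761, and the relaxed lists of replicates 1, 2 and 3 hold 22598, 30000 and 18934 peaks. The round length for replicate 2 may be a cap on that list, which no source used here states. Depth is unknown, so no counting interval can be given. The lists for dm3 were not used.

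Positions, on dm6, were joined to Ensembl release 115 gene models of Release 6. Any annotated gene except a transposable element could be a divergent partner, measured from the outermost start of the gene, whereas the written design named any start; that version is an alternative. Pericentric parts lay beyond 22 Mb on 2L and X and 23 Mb on 3L, and below 5.4 Mb on 2R and 4.6 Mb on 3R. Differences between classes were taken within each library and tested by an exact two-sided sign-flip permutation over the 3 libraries, with Benjamini-Hochberg adjustment over 27 differences. Peaks and genes were not treated as replicates. Motif matches were exact, on either strand, and no sequence from 2R was printed. Python 3.11.15, numpy 2.4.6, pandas 2.3.3, scipy 1.17.1 and matplotlib 3.10.9 were used, and the class assignment was tested on simulated data.

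Members, gene lists and motifs were chosen with earlier results of these data known. Named were the 12 strongest members, the strongest with each motif, up to 3 bound and 1 unbound gene of each list, and the members next to the 500 bp limit, and Lhr, Hmr, the HP1a gene and BEAF-32 were added. In the lists, the names lat, Zw5, Yb, calypso, h, otd, n-syb and Unc-89 matched no gene. Alternatives covered the list, the window, the partner gap, the summit match, the motif window and each library left out.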

Additional observations from a re-analysis of the deposited data

How the results depend on the processing

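Of 110 alternative values for 9 results, 17 turned the direction of a difference, and 20 moved a count by over 1.5 times or a share or position by more than the SD of the libraries. Among the other 73, a difference kept its sign but not always its size. For none was the cause tested, beyond what the length of a list fixes. In the stronger part of the final list there were 864 members, 93.3% of them found in all 3 libraries, with a median position of -98.5 bp and 10.4% of genes bound. There the share of members minus that of divergent promoter peaks was 0.559 percentage points for M1BP and -0.590 for DRE. In the combined relaxed list there were 3577 members, 29.6% found in all 3 libraries, and 32.8% of genes bound, and the difference from divergent peaks was -8.99 for recurrence, -2.26 for M1BP, -1.67 for DRE and -8.61 for the median rank. Among peaks found in all 3 libraries the M1BP difference was 0.157, and 12.7% of genes were bound. A window of 200 bp gave 69.4% found in all 3 libraries, a median of -67 bp, differences of 2.31 for M1BP and 2.51 for DRE, and 13.6% of genes bound. A window of 1000 bp gave 66.9%, a recurrence difference of -0.115, a DRE difference of -0.292 and 19.9% of genes bound. With the partner limit at 500 bp the DRE difference was -0.406 and 19.7% of genes were bound, and at 2000 bp the recurrence difference was -0.919. With summits matched within 50 bp 55.5% of members were found in all 3 libraries, with a difference from divergent peaks of 7.30, within 200 bp 73.4%, with a difference of -1.42, and by overlapping intervals 73.9%, with a difference of -2.32. Motif windows of 50 bp gave an M1BP difference of 0.452, and those of 200 bp differences of -3.62 for M1BP and -3.87 for DRE. Looking for a partner upstream of any start, chosen after seeing the data, gave an M1BP difference of 0.0953. Without each library in turn, which keeps peaks found in the other 2, between 13.7% and 14.2% of genes were bound, the M1BP difference lay between -0.772 and 1.19, and the difference in median rank between 2.97 and 4.95. The share found in all 3 libraries has no value where a library is left out or where peaks were kept for being found in all. The lead of genes behind a same-strand gene stayed positive in every alternative. No paired analysis was possible because the study has only 1 group of samples, and classes of peaks were compared within each library. Depth is unknown and limits what can be said of weak peaks.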

Other observations

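The words under the members were also counted without a word list. All words of 7 bases were counted on either strand in the 201 bp windows, and 1008 of them, each counted together with its reverse complement, lay under at least 4% of members. They were then ordered by their share in members over that in unbound promoters without divergent partner, an order chosen after seeing the data and given with no test. The first was GGTCACA, in 15.1% of members (15.0%, 15.3% and 14.6% in replicates 1, 2 and 3), against 15.2% of divergent promoter peaks, 2.01% of peaks away from starts and 2.43% of unbound promoters. It is a part of the M1BP word, as is TCACACT, in 13.9% of members against 3.03% of unbound promoters. Words that extend the M1BP word at its end came after these, with CACACTG in 12.8% of members against 3.35% of unbound promoters. The word ACTATCG, which shares only its last letters TATCG with DRE, was in 10.3% of members, 11.6% of divergent peaks and 2.66% of unbound promoters. The core ATCGATA of the DRE word was in 21.1% of members, 21.0% of divergent peaks and 7.49% of unbound promoters. The word CACAGTG was in 5.55% of members, 3.81% of divergent peaks, 6.09% of peaks away from starts and 2.06% of unbound promoters.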
